A study of Mus musculus with 6 samples.

Results

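The 8 genes described here encode transcription factors that set and hold the identity of hepatocytes: the forkhead factors Foxa1, Foxa2 and Foxa3, the basic leucine zipper factors Cebpa, Cebpb and Cebpd, the cut homeodomain factor Onecut1 (HNF6) and the homeodomain factor Prox1. They were chosen by gene symbol from the 23291 symbols listed in each table of liver RNA sequencing values; no threshold on expression defined them, although earlier results of these data were known. All 8 were listed, and 7 of them passed the filter on low values that left 10247 genes for testing. Cebpd did not pass, so its values are given without a place in the main test.

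Livers came from C57BL/6 mice in 2 groups, and the comparison asks how liver RNA levels differ between mice that ate a thrombin inhibitor with the diet and mice that did not. The dabigatran group received for 3 months a high fat diet, named Western in the sample titles, that contained 10 mg of dabigatran etexilate per gram, and the diet group received the high fat diet alone for 3 months. Dabigatran etexilate is an oral prodrug of dabigatran, a direct inhibitor of thrombin. Both groups were therefore on the high fat diet, and a group on ordinary chow is not part of the comparison. Each group has 3 deposited tables, but dabigatran replicates 0 and 1 carried the same value for each of the 23291 symbols; they enter as a single library, called dabigatran replicate 1, which leaves n = 2 against n = 3.

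Hepatocyte genes are switched on by a small set of factors that bind together at the same enhancers and that regulate one another. FOXA proteins bind compacted chromatin and open it for other factors during liver development. C/EBP alpha drives metabolic genes in the resting liver, while C/EBP beta and C/EBP delta are induced by inflammatory cytokines, cyclic AMP and glucocorticoids and activate acute phase genes. HNF6 controls genes of both hepatocytes and bile duct cells, and PROX1 is needed for hepatocyte migration in the embryo and acts in adult liver as a corepressor of nuclear receptors such as LRH-1 and HNF4 alpha.

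Values are FPKM (fragments per kilobase of transcript, relative to all fragments mapped in a library). The libraries did not form 2 tight groups. Along the axis of greatest variance over tested genes (PC1, 49.2%), dabigatran replicates 1 and 2 lay at 15.8 and 48.7, and diet replicates 0, 1 and 2 at -29.5, -6.16 and -28.8. Diet replicate 1 thus lay nearest to the dabigatran libraries. Depth relative to diet replicate 0, read from the steps of the lowest values, was 0.857 and 0.772 in dabigatran replicates 1 and 2, and 0.761 and 0.967 in diet replicates 1 and 2. Alb, for albumin, a defining hepatocyte product, was abundant in every library, with 18532 and 27246 FPKM in the dabigatran libraries, and 20513, 18647 and 21821 FPKM in the diet libraries.

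The windows upstream of the transcription start are shown for Prox1 and Cebpb, the tested factors whose groups did not overlap, and for Foxa2, which carries a motif of its regulator Onecut1. They are the 250 bases before the start, 5′ to 3′ on the gene's strand, from RefSeq (GRCm38.p6), which had entries for 7 of the 8 genes, all but Cebpd. Capitals mark matches to a FOXA motif (TGTTTNC), a C/EBP motif (TTNNGCAA) or a ONECUT motif (ATCAAT), each searched on both strands with overlaps allowed.
Prox1, upstream start, chr1:190170828-190171077, minus strand: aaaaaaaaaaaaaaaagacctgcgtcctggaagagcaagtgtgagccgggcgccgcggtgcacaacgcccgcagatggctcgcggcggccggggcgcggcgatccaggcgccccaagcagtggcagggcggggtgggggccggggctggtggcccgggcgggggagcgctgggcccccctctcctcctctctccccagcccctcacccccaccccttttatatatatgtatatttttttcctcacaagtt
Prox1, downstream start, chr1:190169516-190169765, minus strand: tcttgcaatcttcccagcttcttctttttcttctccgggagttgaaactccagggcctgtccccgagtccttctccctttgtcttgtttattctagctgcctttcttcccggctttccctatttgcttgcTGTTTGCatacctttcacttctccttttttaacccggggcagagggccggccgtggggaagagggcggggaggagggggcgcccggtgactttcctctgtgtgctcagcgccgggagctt
Cebpb, chr2:167688665-167688914, plus strand: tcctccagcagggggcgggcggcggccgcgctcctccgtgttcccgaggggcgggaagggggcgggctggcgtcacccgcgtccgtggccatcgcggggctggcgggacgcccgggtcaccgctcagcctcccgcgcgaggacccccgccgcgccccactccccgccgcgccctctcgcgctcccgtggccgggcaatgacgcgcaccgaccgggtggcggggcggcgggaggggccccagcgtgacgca
Foxa2, upstream start, chr2:148046970-148047219, minus strand: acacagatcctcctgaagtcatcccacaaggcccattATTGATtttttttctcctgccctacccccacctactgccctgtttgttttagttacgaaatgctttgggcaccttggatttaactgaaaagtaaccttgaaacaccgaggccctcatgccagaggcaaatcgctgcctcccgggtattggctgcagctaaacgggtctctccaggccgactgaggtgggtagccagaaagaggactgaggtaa
The downstream Prox1 window held 1 FOXA match and the Foxa2 window 1 ONECUT match, while the Cebpb window, with 81.6% G and C, held none of the 3 motifs. The other Foxa2 windows and those of Foxa3, Cebpa and Onecut1 held none either, and the Foxa1 window held 1 FOXA match. Of all 32851 promoter windows of the same length, 17.8% held the FOXA motif, 9.6% the C/EBP motif and 6.7% the ONECUT motif. A match is a run of letters and does not show that a factor binds there.

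None of the 7 tested factors passed the test between the groups (limma, Benjamini-Hochberg adjusted p under 0.05 over all 10247 genes), a threshold that 0.429% of all tested genes passed (0.127% higher with dabigatran and 0.303% lower). At an unadjusted p under 0.05, 2 of the 7, Prox1 and Cebpb, were higher with dabigatran, against 6.87% of all genes, and 0 were lower, against 9.13%. The same genes were the ones whose groups did not overlap, whereas 34.4% of all genes did not overlap in either direction and 17.2% did not in that one. Cebpd also had both dabigatran values above all diet values. The other 5 factors overlapped between the groups.

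**Figure D1:**
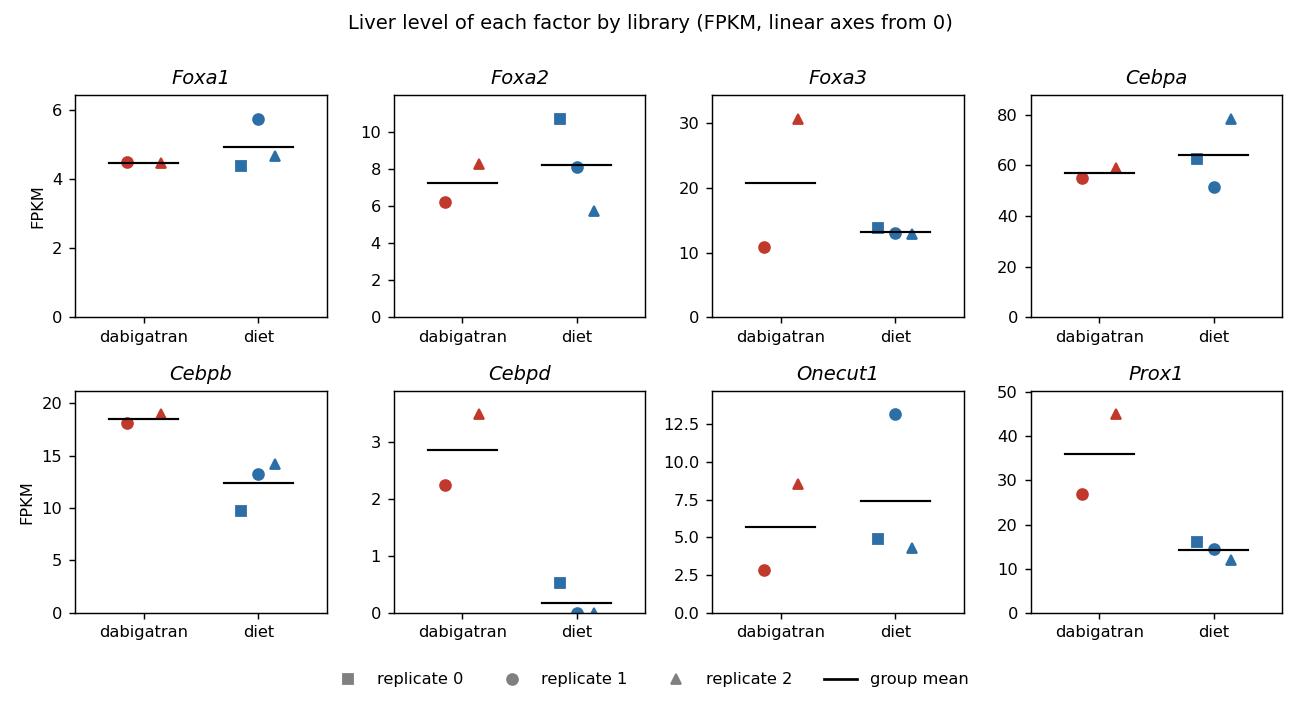
FPKM of the 8 factors in each library, on linear axes from 0, with dabigatran libraries (red) left of diet libraries (blue), symbols by replicate number and bars at group means (n = 2 and n = 3). Both dabigatran libraries lay above all diet libraries for Cebpb, Cebpd and Prox1, and Foxa3 was high in dabigatran replicate 2 alone.

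Among the forkhead factors, Foxa1 (chromosome 12, 57540628 to 57546916), which opens chromatin at liver enhancers together with Foxa2, had 4.48 and 4.46 FPKM in dabigatran replicates 1 and 2, and 4.37, 5.74 and 4.66 FPKM in diet replicates 0, 1 and 2. All 5 libraries lay close together, and the dabigatran values lay inside the diet range. The log2 difference, on the log2(FPKM + 0.5) scale used throughout, was -0.12 ± 0.23 (SE), with a 95% interval of -0.65 to 0.41 (limma adjusted p = 0.842).

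Foxa2 (chromosome 2, 148042877 to 148046969), which in mouse liver controls genes of bile acid transport and of fasting lipid metabolism, had 6.24 and 8.25 FPKM in the dabigatran libraries, and 10.7, 8.10 and 5.74 FPKM in the diet libraries. The diet libraries spanned 1.86-fold and enclosed both dabigatran values. The log2 difference was -0.14 ± 0.29 (SE), with an interval of -0.80 to 0.53 (limma adjusted p = 0.852). Its sign turned without diet replicate 0 (0.07) or dabigatran replicate 1 (0.05).

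Foxa3 (chromosome 7, 19013284 to 19023538), the forkhead factor that in mouse helps maintain glucose output in fasting, had 10.8 and 30.7 FPKM in the dabigatran libraries, and 13.8, 13.02 and 12.9 FPKM in the diet libraries. The diet libraries differed by less than 1.07-fold, with dabigatran replicate 1 below all of them and replicate 2 above. The log2 difference was 0.45 ± 0.38 (SE), with an interval of -0.42 to 1.32 (limma adjusted p = 0.598). Without dabigatran replicate 1 it was 1.18 and passed (adjusted p = 0.0483), and without dabigatran replicate 2 it was -0.28, so the direction was set by which dabigatran library was kept. The order Foxa3, Foxa2, Foxa1 by FPKM, from high to low, held in all 5 libraries.

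Of the C/EBP genes, Cebpa (chromosome 7, 35119293 to 35121928), needed for glycogen storage and for glucose and ammonia handling in newborn mice, had the highest level of the 8 factors in every library. It had 54.9 and 58.8 FPKM in the dabigatran libraries, and 62.5, 51.6 and 78.4 FPKM in the diet libraries. The groups overlapped, and the log2 difference was -0.15 ± 0.21 (SE), with an interval of -0.63 to 0.33 (limma adjusted p = 0.762). Without diet replicate 2, the library with the highest value, the difference was 0.0012.

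Cebpb (chromosome 2, 167688915 to 167690418), an intronless gene whose product activates gluconeogenic and acute phase genes, had 18.1 and 18.9 FPKM in the dabigatran libraries, and 9.75, 13.2 and 14.2 FPKM in the diet libraries. Diet replicate 0 was the lowest, and the gap between the groups, 18.1 FPKM with dabigatran and 14.2 FPKM on the diet, was smaller than the range of the diet group. The group means were 18.5 ± 0.572 FPKM with dabigatran and 12.4 ± 2.33 FPKM on the diet (SD, n = 2 and n = 3). The log2 difference was 0.58 ± 0.22 (SE), with an interval of 0.08 to 1.08 (limma unadjusted p = 0.0284, adjusted p = 0.253). It lay between 0.42 and 0.68 when each library was left out in turn. These values may rest on few fragments: the smallest whole numbers in the observed ratios were 51 and 48 fragments in the dabigatran libraries, and 32, 33 and 45 in the diet libraries. Such numbers can be too small by a whole factor. Of its exon bases, 20.7% also belong to exons of Tmem189 on the opposite strand, and Tmem189 had 10.2 and 10.96 FPKM in the dabigatran libraries, and 13.2, 8.34 and 13.1 FPKM in the diet libraries, which overlap.

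Cebpd (chromosome 16, 15887286 to 15891031), induced early by interleukin 6 and interleukin 1 in the acute phase response, had 2.24 and 3.49 FPKM in the dabigatran libraries. In the diet libraries it had 0.523 FPKM in replicate 0 and was listed at 0 in replicates 1 and 2. The filter asked for at least 1 FPKM in 3 of the 5 libraries, which Cebpd reached in 2, both of them dabigatran libraries. Fitted without that filter, the log2 difference was 2.38 ± 0.41 (SE, limma unadjusted p = 6.92e-04, adjusted p = 0.121 over 15121 genes), where the pseudocount of 0.5 largely sets the size. By the RefSeq length of 2260 bases and the value of 1 fragment in Cebpa, these levels amount to about 10.2 and 14.2 fragments in the dabigatran libraries, and 2.8, 0 and 0 in the diet libraries. By the value of 1 fragment in Cebpb they were 9.5 and 13.3, and 2.6, 0 and 0. These estimates are rough, since the Cebpa and Cebpb numbers can be too small by a whole factor. The lengths of Cebpa and Cebpb were also taken from GENCODE, not RefSeq. The Cebpd values were not whole multiples of a common step, and 15% of its exon bases are shared with Spidr on the opposite strand. Spidr, listed under its older symbol 2310008H04Rik, had 0.904 and 0.836 FPKM in the dabigatran libraries, and 1.55, 1.70 and 0.668 FPKM in the diet libraries.

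Since FPKM is per length, levels of the C/EBP genes can be set against each other within a library. The Cebpb level was 0.330 and 0.322 of the Cebpa level in the dabigatran libraries, and 0.156, 0.256 and 0.181 of it in the diet libraries. The ratios did not overlap between the groups, with diet replicate 1 nearest to the dabigatran libraries. The mean log2 ratio (FPKM + 0.5) differed by 0.73 (exact permutation test over the 5 libraries, two-sided, p = 0.2, adjusted over 4 ratios p = 0.4). With 2 and 3 libraries this test cannot give a p under 0.1. The log2 ratio of Cebpd to Cebpa differed by 2.53 (exact permutation p = 0.1, adjusted p = 0.4), a size set by the pseudocount, since it was 1.88 with a pseudocount of 1 and 4.13 with 0.1 (exact permutation p = 0.1 and 0.2). The log2 ratio of Foxa3 to Foxa2 differed by 0.59 (exact permutation p = 0.4, adjusted p = 0.533), and the log2 ratio of Foxa2 to Foxa1 by -0.02 (exact permutation p = 0.9, adjusted p = 0.9).

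**Figure D2:**
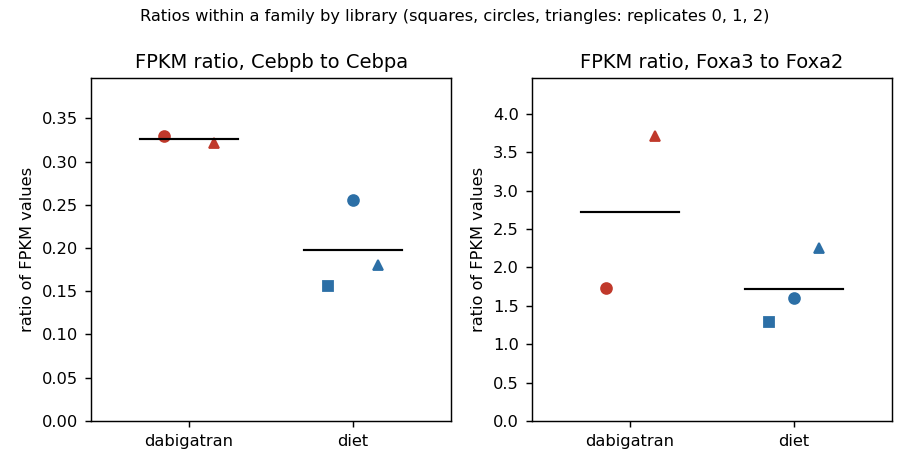
Ratios of FPKM values within a library for Cebpb to Cebpa and for Foxa3 to Foxa2, on linear axes from 0, with dabigatran libraries (red) left of diet libraries (blue) and bars at group means. The Cebpb to Cebpa ratio was 0.330 and 0.322 with dabigatran and 0.156 to 0.256 on the diet, while the Foxa3 to Foxa2 ratio of 3.72 in dabigatran replicate 2 stood above the other 4 libraries.

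Onecut1 (chromosome 9, 74861921 to 74891781), which encodes HNF6 and acts upstream of other liver factors during development, had 2.85 and 8.54 FPKM in the dabigatran libraries, and 4.89, 13.2 and 4.30 FPKM in the diet libraries. It was the most variable tested factor within groups, with a 3.06-fold span on the diet, and its highest value was in diet replicate 1. The log2 difference was -0.36 ± 0.54 (SE), with an interval of -1.60 to 0.88 (limma adjusted p = 0.783). The sign turned without diet replicate 1 (0.11) or dabigatran replicate 1 (0.36). The smallest whole numbers in the observed ratios were 10 and 27 fragments in the dabigatran libraries, and 20, 41 and 17 in the diet libraries. Of its annotated exon length, 52.8% is shared with the noncoding gene Gm20649 on the same strand, so reads of the pair cannot be told apart over that stretch.

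Prox1 (chromosome 1, 190118035 to 190170714), which in adult mouse liver represses bile acid synthesis genes with LRH-1 and is also the master factor of lymphatic endothelium, had 27.0 and 45.0 FPKM in the dabigatran libraries, and 16.2, 14.5 and 12.0 FPKM in the diet libraries. The lower dabigatran value was 27.0 FPKM, against 16.2 FPKM for the highest diet value, and the dabigatran libraries differed from each other more than the diet libraries did. The means were 36 ± 12.7 FPKM with dabigatran and 14.2 ± 2.07 FPKM on the diet (SD, n = 2 and n = 3). The log2 difference was 1.27 ± 0.25 (SE), or 2.42-fold, with an interval of 0.69 to 1.86 (limma unadjusted p = 0.00104, adjusted p = 0.0751). It therefore missed the threshold over all genes, at rank 141 of the 10247 by unadjusted p.

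The Prox1 difference lay between 0.91 and 1.64 when each library was left out in turn, always with higher values with dabigatran. Without dabigatran replicate 1 it passed (1.64, limma adjusted p = 0.0293), and without diet replicate 0, 1 or 2 or dabigatran replicate 2 it did not (adjusted p = 0.263, 0.0639, 0.287 and 0.334). The smallest whole numbers in the observed ratios were 231 and 346 fragments in the dabigatran libraries, and 161, 110 and 116 in the diet libraries. Only 1.6% of its exon bases are shared with the antisense gene Prox1os.

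**Figure D3:**
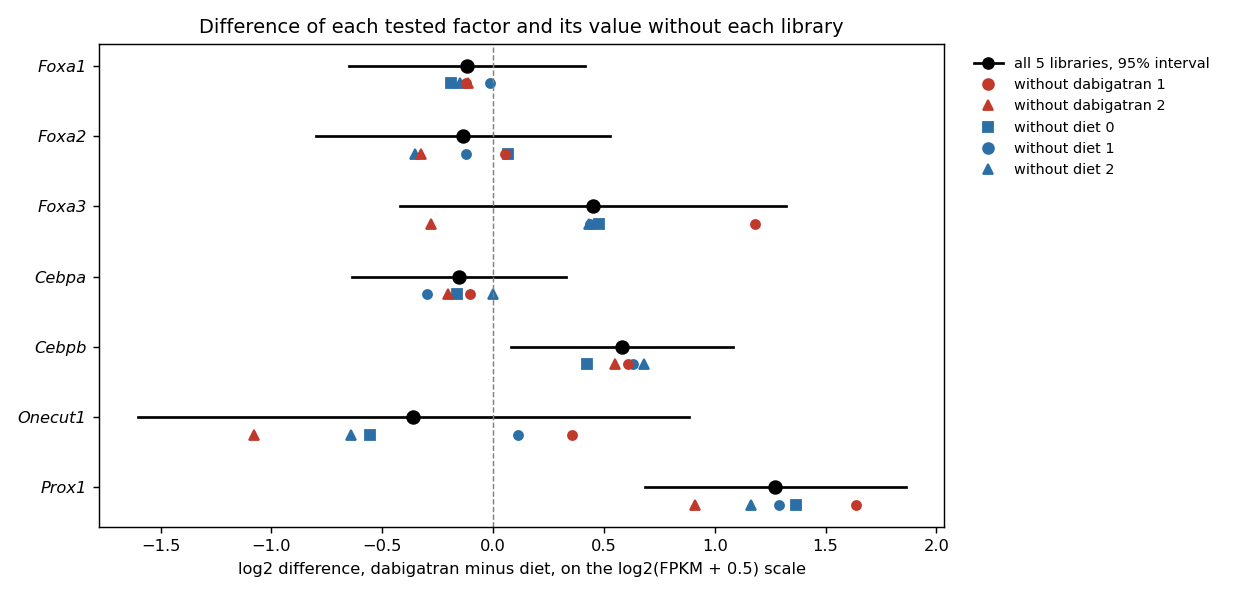
Log2 difference, dabigatran minus diet, of the 7 tested factors, with the 95% interval of the limma fit (black, n = 2 and n = 3) and, below each, the value without each library in turn. The intervals of Cebpb (0.08 to 1.08) and Prox1 (0.69 to 1.86) lay above 0 before adjustment, and the values of Foxa3 and Onecut1 moved to either side of 0 with the library left out.

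Markers of lymphatic endothelium, the other known source of Prox1 RNA, were set beside it. Of 7 such markers, 4 were tested and 0 passed, with summed levels of 30.1 and 37.7 FPKM in the dabigatran libraries, and 24.7, 21.6 and 19.6 FPKM in the diet libraries. Without Lyve1 the sums overlapped, with 11.5 and 14.5 FPKM in the dabigatran libraries, and 14.3, 12.6 and 12.3 FPKM in the diet libraries. The defining markers Pdpn, for podoplanin, and Ccl21a were listed at 0 in all 5 libraries. Lyve1, a hyaluronan receptor of lymphatic and liver sinusoidal endothelium, was like Prox1 without overlap between the groups: it had 18.6 and 23.2 FPKM in the dabigatran libraries, and 10.4, 9.07 and 7.31 FPKM in the diet libraries (log2 difference 1.19 ± 0.22 SE, limma adjusted p = 0.0689). Sox18, an endothelial transcription factor gene, lay the other way, with 0.979 and 1.09 FPKM in the dabigatran libraries, and 1.96, 3.31 and 1.16 FPKM in the diet libraries (limma adjusted p = 0.429), and Flt4 and Nr2f2 overlapped between the groups. The part of lymphatic endothelium in the Prox1 values was not tested. In whole liver, a change in the number of cells of a type and a change in RNA per cell cannot be told apart.

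By mean over the 5 libraries, the order of levels was Cebpa (61.2 FPKM), Prox1 (22.9), Foxa3 (16.2), Cebpb (14.8), Foxa2 (7.81), Onecut1 (6.75), Foxa1 (4.74) and Cebpd (1.25). The lowest Cebpa value lay above the highest value of every other factor, and Cebpd had the lowest value of the 8 in each library, although its highest value exceeded the lowest Onecut1 value. Neighbours from Prox1 down to Foxa1 overlapped in their ranges over libraries and were not told apart by them. Cebpa stood at the 89.6th to 92.5th percentile of the tested genes in each library, Prox1 at the 66.8th to 88.5th and Foxa1 at the 36.8th to 46.3rd.

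The tested genes whose centred log2 profiles were most like those of a factor over the 5 libraries were named by the smallest root mean square difference. For Prox1 these were Fmo2, for a flavin monooxygenase (0.08 log2 units), and the zinc finger gene Sall1 (0.12), against a spread of Prox1 itself of 0.68. Sall1 had 3.73 and 6.88 FPKM in the dabigatran libraries, and 2.66, 1.95 and 1.86 FPKM in the diet libraries. For Cebpb they were Vcam1, an endothelial adhesion molecule gene, and Sympk, a gene of messenger RNA 3′ end processing (0.05 each, against 0.33). For Foxa3 they were the gap junction gene Gja1 and the dimethylglycine dehydrogenase gene Dmgdh (0.08 and 0.09, against 0.51). For Foxa2 they were Cstf2 and Dynll1, for Cebpa Zmynd15 and Thoc3, for Foxa1 Creb1 and Mkks, and for Onecut1 Snhg1 and 1700012D01Rik. With so many genes and 5 libraries, close profiles occur among unrelated genes.

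Other hepatocyte transcription factors, a list of 29 genes that includes nuclear receptors, had a median log2 difference of 0.26 over 27 tested members, beside 0.02 over all tested genes. None passed. Of the 27, 9 did not overlap between groups with higher values with dabigatran and 2 with lower, where 17.2% of all tested genes did so in each direction. At an unadjusted p under 0.05, 6 were higher and 2 lower, and these counts, here and for the lists that follow, stand beside 6.87% higher and 9.13% lower over all tested genes. The lists were chosen with earlier results of these data known, so a count above these shares is not a test of a list. Hnf4a, for the nuclear receptor central to the hepatocyte network, had 134 and 236 FPKM in the dabigatran libraries, and 100.3, 125 and 107 FPKM in the diet libraries (limma adjusted p = 0.243). Esrra, for an orphan receptor of mitochondrial genes, had 10.6 and 9.04 FPKM with dabigatran and 4.85, 4.08 and 6.62 FPKM on the diet (adjusted p = 0.160). The zinc finger factor gene Klf15 had 42.8 and 34.5 FPKM with dabigatran, against 25.7, 28.3 and 26.2 FPKM on the diet, and the receptor gene Rxra had 70.5 and 88.5 FPKM with dabigatran, against 56.3, 56.1 and 57.4 FPKM on the diet (adjusted p = 0.229 and 0.240). Foxq1, a forkhead gene, had 1.24 and 1.18 FPKM with dabigatran and 3.80, 5.59 and 1.73 FPKM on the diet (adjusted p = 0.237), and 66.1% of its exon length is shared with a gene on the opposite strand.

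Relatives and regulators of the C/EBP proteins comprised 16 genes, of which 15 were tested, 0 passed, and 3 were higher and 2 lower at an unadjusted p under 0.05 (median 0.11). Atf5, a bZIP factor of the stress response that is abundant in liver, had 246 and 211 FPKM in the dabigatran libraries, and 85.2, 152 and 107 FPKM in the diet libraries (limma adjusted p = 0.114). Atf4, a partner of C/EBP proteins in amino acid and stress responses, had 49.8 and 45.1 FPKM with dabigatran, against 22.6, 33.8 and 31.2 FPKM on the diet (adjusted p = 0.175). The clock output factor Dbp had 1.25 and 1.74 FPKM with dabigatran and 12.1, 4.59 and 10.00 FPKM on the diet (log2 difference -2.14 ± 0.39 SE, adjusted p = 0.0674), with 18.0% of its exon length shared with Sphk2. Cebpe, which acts in granulocytes, had 0.895 FPKM and a listed 0 with dabigatran and 4.22, 1.01 and 4.36 FPKM on the diet (adjusted p = 0.199), and reached the filter through the diet libraries alone. Trib1, whose product directs degradation of C/EBP alpha, overlapped between the groups, with 13.5 and 6.55 FPKM with dabigatran and 8.88, 17.4 and 10.0 FPKM on the diet.

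Genes of the interleukin 6, interleukin 1 and glucocorticoid pathways, with the cyclic AMP factor genes Creb1 and Crem, formed a list of 16, all tested. These pathways act on Cebpb and Cebpd, but the list also holds genes that they induce. None passed. Without overlap between groups, 8 had higher values with dabigatran and 1 lower, where 17.2% of all tested genes did so in each direction. Because the list was chosen with earlier results of these data known, these counts are not a test of the pathways. At an unadjusted p under 0.05, 6 were higher and 0 lower, and the median was 0.29. The 3 glucocorticoid-induced genes with the lowest p were Per1, Fkbp5 and Tsc22d3. Per1, a clock repressor, had 6.63 and 9.90 FPKM in the dabigatran libraries, and 0.444, 2.45 and 0.643 FPKM in the diet libraries (log2 difference 2.55 ± 0.49 SE, limma adjusted p = 0.0716). Fkbp5, a glucocorticoid receptor co-chaperone, had 15.2 and 99.1 FPKM with dabigatran, against 3.71, 9.27 and 5.57 FPKM on the diet (adjusted p = 0.131). Tsc22d3, which encodes GILZ, had 37.3 and 31.5 FPKM with dabigatran, against 8.19, 21.3 and 13.7 FPKM on the diet (adjusted p = 0.134). Stat3, the transducer of interleukin 6 signals, had 25.5 and 34.9 FPKM with dabigatran, against 20.9, 15.1 and 14.97 FPKM on the diet (adjusted p = 0.158). In Per1, Fkbp5 and Tsc22d3, diet replicate 1 was the diet library nearest to the dabigatran values.

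**Figure D4:**
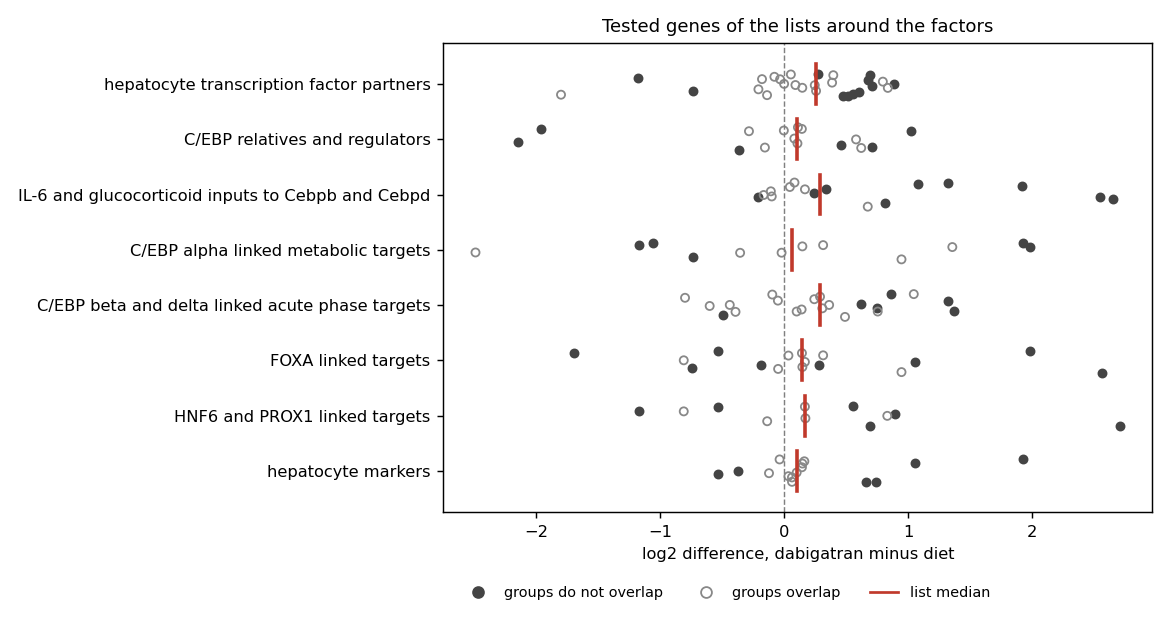
Log2 difference, dabigatran minus diet, of each tested gene of 8 lists around the factors, with filled points where the groups do not overlap, open points where they do, and red bars at list medians. Medians lay between 0.06 and 0.29, and single genes reached both directions in every list.

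Acute phase genes linked to C/EBP beta and C/EBP delta had 0 of 21 members past the test, with 6 higher and 0 lower at an unadjusted p under 0.05 and a median of 0.29. Itih3, an inter-alpha-trypsin inhibitor chain, had 501 and 562 FPKM in the dabigatran libraries, and 185, 267 and 175 FPKM in the diet libraries (log2 difference 1.37 ± 0.22 SE, limma adjusted p = 0.0560). The protease inhibitor gene Serpina3n had 439 and 524 FPKM with dabigatran, against 173, 282 and 142 FPKM on the diet (adjusted p = 0.0863), and its reads can be shared with near-identical copies. The fibrinogen chain genes Fga and Fgb had log2 differences of 0.75 and 0.86 (adjusted p = 0.145 and 0.163). The serum amyloid genes Saa1 and Saa2 behaved otherwise and are given as chosen after their values were seen. Saa1 had 6141 and 116 FPKM in the dabigatran libraries, and 187, 2940 and 227 FPKM in the diet libraries, so the 2 dabigatran libraries were the highest and the lowest of the 5. Saa2, the orosomucoid gene Orm2 and the lipocalin gene Lcn2 also had their highest value in dabigatran replicate 1 and their lowest in dabigatran replicate 2. In Saa1, Saa2, Orm2 and Lcn2, diet replicate 1 was the highest diet library. The serum amyloid genes Saa3 and Saa4 did not share this pattern. Saa3 had 37.2 and 4.77 FPKM in the dabigatran libraries, and 8.60, 172.6 and 8.89 FPKM in the diet libraries. Saa4 had 107.2 and 57.9 FPKM with dabigatran, against 132.1, 69.9 and 132.6 FPKM on the diet, where diet replicate 1 was the lowest diet library. The list's median was -0.14 without dabigatran replicate 1 and 0.64 without dabigatran replicate 2.

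Of 12 genes linked to C/EBP alpha, most of them metabolic, 1 fell and 0 rose, with a median of 0.06. At an unadjusted p under 0.05, 3 were higher and 3 lower. The list also holds Hamp, for the iron hormone hepcidin, and the cell cycle inhibitor gene Cdkn1a, which is among the 3 higher. Ugp2, for the enzyme that makes UDP-glucose for glycogen, fell to 46.3 and 49.8 FPKM in the dabigatran libraries, against 105, 97.2 and 99.9 FPKM in the diet libraries (log2 difference -1.06 ± 0.16 SE, limma adjusted p = 0.0448). That call was lost when any library other than diet replicate 1 was left out (adjusted p between 0.0525 and 0.263), while the difference stayed between -1.11 and -1.01. Cps1, the first enzyme of the urea cycle, had 826 and 1793 FPKM with dabigatran and 248, 469 and 282 FPKM on the diet (adjusted p = 0.0738). Tat, a glucocorticoid-induced aminotransferase, had 628 and 857 FPKM with dabigatran, against 109.7, 352 and 163 FPKM on the diet (adjusted p = 0.0869), and the alcohol dehydrogenase gene Adh1 had 391.9 and 272 FPKM with dabigatran, against 788, 558 and 908 FPKM on the diet (adjusted p = 0.0902).

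Genes linked to FOXA proteins had 0 of 16 tested members past the test and a median of 0.15, with 3 higher and 3 lower at an unadjusted p under 0.05. Beside Tat, the bile acid exporter gene Abcc3 had 15.3 and 16.8 FPKM in the dabigatran libraries, and 64.7, 32.4 and 70.7 FPKM in the diet libraries (limma adjusted p = 0.0714). The hepatic lipase gene Lipc had 33.9 and 37.3 FPKM with dabigatran, against 58.6, 55.4 and 65.8 FPKM on the diet (adjusted p = 0.101), and Apoa1, for the main HDL protein, had 7630 and 10688 FPKM with dabigatran, against 3443, 5660 and 4189 FPKM on the diet (adjusted p = 0.142). Ttr, for transthyretin, a classical target of FOXA and HNF6, had 1707 and 1518 FPKM with dabigatran and 2337, 1849 and 2945 FPKM on the diet (adjusted p = 0.327).

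The list for HNF6 and PROX1 held 11 genes, all tested, with 0 past the test and a median of 0.17. Of the 11, which include Foxa2, 4 were higher and 2 lower at an unadjusted p under 0.05. Cyp7a1, which encodes the first and rate-limiting step from cholesterol to bile acids and which PROX1 represses through LRH-1, had 35.2 and 267 FPKM in the dabigatran libraries, and 22.7, 8.10 and 16.1 FPKM in the diet libraries (limma adjusted p = 0.149). Prox1 and Cyp7a1 both had their highest value in dabigatran replicate 2, a single library, and how their levels relate was not tested. Cyp8b1, which makes cholic acid, had 415 and 513 FPKM with dabigatran, against 225, 325 and 209 FPKM on the diet (adjusted p = 0.131). The sterol exporter gene Abcg5 had 31.1 and 21.6 FPKM with dabigatran, against 59.9, 59.3 and 57.8 FPKM on the diet (adjusted p = 0.0639).

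Markers of the cells in the tissue gave the following. Of 15 hepatocyte markers, 0 passed (median 0.10), and 4 were higher and 0 lower at an unadjusted p under 0.05. Their summed level was 58106 and 75298 FPKM in the dabigatran libraries, and 56840, 58906 and 63133 FPKM in the diet libraries. Dabigatran replicate 2, the library with the highest Prox1 and Foxa3 values, had the highest sum. It also had the highest total FPKM over all listed genes, 492755, against 423726 in diet replicate 0, the lowest. Of 13 bile duct markers, 3 were tested and 0 passed, and the defining Krt19 had 0.395 FPKM and a listed 0 with dabigatran, and 0.861 FPKM in diet replicate 0 with a listed 0 in diet replicates 1 and 2. Of 9 endothelial, 10 macrophage, 7 stellate cell and 3 granulocyte markers tested, 0 passed, with medians of 0.11, 0.01, -0.24 and 0.45. Of the endothelial markers, 5 were higher and 2 lower without overlap between groups, beside 17.2% of all tested genes each way. The endothelial Clec4g and the stellate cell Col3a1 were lower at an unadjusted p under 0.05 (limma adjusted p = 0.139 and 0.0674), and 0 of these markers were higher. Col3a1 had 1.29 and 0.953 FPKM with dabigatran, against 6.26, 3.48 and 6.32 FPKM on the diet. The granulocyte median ranged from -0.81 to 2.80 and the macrophage median from -0.37 to 0.18 when single libraries were left out. Of 2 tested fat cell markers 1 fell, Cfd, which was listed at 0 in both dabigatran libraries and had 150.4, 28.3 and 47.5 FPKM on the diet (adjusted p = 0.0110 by limma). Cfd reached the filter through the diet libraries alone, as 93 tested genes did, 5 of them called, whereas a gene at 1 FPKM in the dabigatran libraries alone, such as Cebpd, could not enter the test. Of 12 tested immediate early genes and 3 tested fetal genes, 0 passed, with medians of 0.10 and 0.24 that ranged from -0.40 to 0.45 and from -0.20 to 0.58 without single libraries. How cell makeup bears on the factors' values was not tested.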

How the data were processed

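The authors deposited 1 table per liver library with an FPKM value for each gene symbol, per the file headers. Per the labels' protocols, total RNA went into TruSeq libraries. The submitters' processing notes name, without roles, the builds mm10 and GRCm38 and the tools Cuffdiff, TopHat2 2.0.4, CASAVA, R 2.15.1 and TopHat. Not given in the sources used here: the annotation, use of strand and handling of reads matching several genes. FPKM depends on the total of a library, so a few very abundant genes can lower the rest.

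Members and lists were chosen with earlier results of these data known. A gene was tested, as log2(FPKM + 0.5), if 3 or more of the 5 distinct libraries had 1 FPKM or more. The test was limma 3.58.1 in R 4.3.3 (variance trend, group as the sole term, two-sided, Benjamini-Hochberg over all tested genes, threshold 0.05). The design had assumed this unit. The steps were tested on simulated data. That libraries are separate animals rests on the design text's mention of mice, so p-values measure the spread between these libraries.

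Relative depth came from the most common ratio between libraries among genes under 0.3 FPKM. With it, the values of 76.5% of tested genes were multiples of a common step (relative tolerance 2e-05), against 0 of 1000 randomly shifted genes. Fragment numbers, the smallest that give the observed ratio, can be too small by a whole factor, and cover counting error only. They can also be too large where only a large number matches the ratio. Cftr, at 0.063 FPKM in diet replicate 0, was given 29 fragments, and Krt7, at 0.286 FPKM in the same library, 1. The numbers cannot be compared between genes. Over the 76.5% of tested genes with such numbers, the median per library was 30 to 40 fragments, and the other tested genes are not covered. An exact 0 can be a failed estimate and is called listed at 0.

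Named genes are all 8 members, up to 4 tested genes of each list by unadjusted p (for lists of cell markers, immediate early and fetal genes mostly counts are given), 6 genes named whatever their p (Alb, Ttr, Hnf4a, Trib1, Krt19 and Lyve1), and the 2 nearest profiles of each member. Gene positions and exon overlaps are from GENCODE M21 (GRCm38), and symbols of the 8 members all matched. Alternatives covered pseudocount, filter, scaling, variance trend, single libraries, a replicate block and both identical tables.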

Additional observations from a re-analysis of the deposited data

How the results depend on the processing

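With 2 dabigatran libraries, counts of called genes depended on settings and single libraries. Against 13 higher and 31 lower, a pseudocount of 0.1 gave 6 and 17, no filter on low values 0 and 0 (816 and 1117 at an unadjusted p under 0.05), a fit without a variance trend 0 and 0 (692 and 870 unadjusted), a filter of 5 FPKM 8 higher, quantile normalization 16 lower, and both identical tables counted 142 and 257. Leaving out single libraries gave 0 to 95 higher and 0 to 199 lower. Of the factors, 0 were called except 1, Prox1, with both identical tables counted (1.15, adjusted p = 0.0413), and 0 to 2 without single libraries, where Prox1 (1.64) and Foxa3 (1.18) passed without dabigatran replicate 1. List genes called numbered 2 (Ugp2 and Cfd), against 1 with a pseudocount of 0.1 or quantile normalization, 0 without a filter or variance trend, 17 with both identical tables, and 0 to 17 without single libraries.

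Without single libraries the log2 difference ranged from -0.35 to 0.067 for Foxa2, -0.28 to 1.18 for Foxa3, -0.30 to 0.0012 for Cebpa, -1.08 to 0.36 for Onecut1, 0.42 to 0.68 for Cebpb, -0.19 to -0.01 for Foxa1 and 0.91 to 1.64 for Prox1. It ranged from -0.13 to 0.43 for Alb, -0.78 to 0.21 for Trib1, -0.24 to 0.85 for Flt4 and -0.16 to 0.064 for Nr2f2, and from -0.21 to 0.26 for the log2 ratio of Foxa2 to Foxa1. Medians of the acute phase, C/EBP alpha linked, C/EBP relative, cholangiocyte, lymphatic, macrophage, granulocyte, immediate early and fetal lists also took both signs. Signs of the other 3 ratios and of Cebpb, Prox1 and Foxa1 held under every alternative run. Foxa1 and Onecut1 did not reach the filter of 5 FPKM. The cause of these shifts was not tested.

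With the replicate number as a block, which uses replicates 1 and 2 of each group, 5 genes were higher and 8 lower, Foxa2 turned to 0.067 and Prox1 was 1.37 (adjusted p = 0.132). The numbers are shared labels: over genes, the difference of replicates 1 and 2 in the dabigatran group had a correlation of -0.04 with that in the diet group. The table of dabigatran replicate 1 was also deposited as replicate 0.

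What the number of fragments limits was not tested.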
